A study of Mus musculus with 9 samples.

Results

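Krt7, Krt8, Krt18 and Krt19 are the keratins typical of simple, that is single-layered, epithelia, and their transcripts were followed on bead arrays from mouse embryonic stem (ES) cells to endoderm and foregut made in culture. The members are all probes annotated to these 4 genes, 1 probe a gene, so 4 of the 16593 genes and 4 of the 25697 probes on the array. The series holds 9 arrays of RNA from sorted cells in 3 groups of 3 arrays. ES cells carried no reporter and had a 129P2/OlaHsd background. Definitive endoderm (DE), the germ layer that gives rise to gut, lung and liver, was made from R1 ES cells, a cross of 129X1/SvJ with 129S1/SV-+p+Tyr- cKitlSl-J/+. Anterior foregut endoderm (AFE), the front part of the gut tube, was made from cells of a 129X1/SvJ background. The labels name the lines AV3, p2lac40, Sox17GFP and Pax9Venus, all grown with LIF on feeder fibroblasts from mouse embryos, which were removed before differentiation. On day 2 of the protocol the cells received 5 nM GSKiXV, an inhibitor of the kinase GSK3, with 5 µM IDE-1, an inducer of endoderm. They were replated on day 6 and given 500 nM A83-01, which blocks activin and TGF-beta receptors, and 100 nM LDN193189, which blocks BMP receptors. The day on which each group was collected and the gate of each sort are not given in the sources used here. Strain, line and sort differ between the groups, so their part in any difference and that of the stage cannot be told apart. Nothing in the labels says that the 3 arrays of a group came from separate cultures, and p-values then measure only the spread between these samples.

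Keratins are the intermediate filament proteins of epithelial cells. A filament is built from pairs of a type I (acidic) and a type II (basic) keratin, and neither type forms a filament alone. Krt8 and Krt7 are type II keratins and Krt18 and Krt19 are type I keratins. Krt8 and Krt18 are the usual partners of simple epithelia and are among the earliest keratins made in the mouse embryo, while Krt7 and Krt19 are known from ducts and other internal linings. Keratin filaments are anchored at desmosomes between cells and at hemidesmosomes on the basement membrane.

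The 4 genes lie in the clusters of the 2 keratin types, with an exception. Krt7, Krt8 and Krt18 are on chromosome 15, the cluster of the type II genes, where the type I gene Krt18 is the next coding gene to Krt8, its partner. Krt18 is followed by the translation factor gene Eif4b. Krt7 lies between Krt80 and Krt87 on the same chromosome. Krt19 is on chromosome 11 between Krt15 and Krt9. All 4 genes rose between ES cells and DE, and the promoters of the 3 genes of chromosome 15 are shown. A window of Krt19 was not used here. Each is the RefSeq window of 300 bases, 250 before to 50 after the gene's start, in GRCm38.p6. Capitals mark the letters TATAA (the core of a TATA box) and GGGCGG (a GC box) on either strand, with the overlapping matches of both strands joined in Krt8.
Krt7 (chr15:101412153-101412452, plus strand): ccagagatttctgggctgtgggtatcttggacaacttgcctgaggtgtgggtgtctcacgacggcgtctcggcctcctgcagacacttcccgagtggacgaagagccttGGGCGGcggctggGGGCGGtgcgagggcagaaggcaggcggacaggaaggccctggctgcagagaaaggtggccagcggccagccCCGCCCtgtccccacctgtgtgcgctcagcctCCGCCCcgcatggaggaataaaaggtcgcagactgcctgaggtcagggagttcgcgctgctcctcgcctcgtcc
Krt8 (chr15:102004293-102004592, minus strand): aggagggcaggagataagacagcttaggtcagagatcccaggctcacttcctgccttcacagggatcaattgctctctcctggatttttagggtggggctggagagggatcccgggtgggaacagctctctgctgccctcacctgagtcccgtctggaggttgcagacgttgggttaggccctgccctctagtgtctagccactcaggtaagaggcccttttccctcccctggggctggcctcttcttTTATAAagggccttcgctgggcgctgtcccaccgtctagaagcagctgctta
Krt18 (chr15:102027966-102028265, plus strand): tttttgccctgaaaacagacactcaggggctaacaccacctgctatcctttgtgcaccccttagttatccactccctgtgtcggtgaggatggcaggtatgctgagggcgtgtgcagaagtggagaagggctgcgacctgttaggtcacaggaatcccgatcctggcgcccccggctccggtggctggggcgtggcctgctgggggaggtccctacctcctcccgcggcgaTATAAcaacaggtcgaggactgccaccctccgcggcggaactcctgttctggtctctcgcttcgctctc
The Krt7 window held 4 GGGCGG matches, 2 on each strand, and no TATAA, and its G and C content was 66.3%. The windows of the partners Krt8 and Krt18 held TATAA and no GGGCGG, with a G and C content of 58.0% and 61.3%. Counted from the annotated start, the TATAA matches began at -1 and -2 in Krt8 and at -19 in Krt18. Whether these letters act as a TATA box was not tested. None of the 3 windows held TGANTCA, the letters of an AP-1 site. Of 32851 RefSeq windows of this length, 24.9% held TATAA, 35.7% held GGGCGG and 7.81% held TGANTCA on either strand.

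Between 12628 and 14352 probes were detected on an array at a detection p under 0.05, and 15090 probes detected on at least 3 arrays were tested. The array has no read depth, and the number of arrays limits the precision. Stage markers differed between the groups. In DE against ES cells 7 of 7 pluripotency genes fell and 8 of 8 definitive endoderm genes rose, while 22.6% of all tested probes fell and 21.4% rose. In AFE against DE 4 of 5 tested foregut genes rose, with 11% of the tested probes. Of 7 foregut genes on the array, 5 to 7 were detected on an AFE array, 1 on a DE array and 2 to 3 on an ES array. Detection was thus mostly in AFE, so the filter favoured foregut genes that rise there. The third array stood apart from the other arrays of its group in DE, AFE and ES cells. Over all tested probes the log2 levels of DE 1 and DE 2 correlated at 0.9942, and those of DE 3 with them at 0.9369 and 0.9348. AFE 1 and AFE 2 correlated at 0.9862, and AFE 3 with them at 0.9621 and 0.9637. ES 1 and ES 2 correlated at 0.9936, and ES 3 with them at 0.977 and 0.9778. ES 3 was also the only array on a slide of its own. DE 3 carried endothelial genes, with 8 of 10 markers detected, Erg and Kdr not, and a summed level of 48058, against 2531.6 to 2669.7 for DE 1 and DE 2. The sums were 1420.8 to 2312 in AFE and 2275.3 to 3414.5 in ES cells. Pluripotency genes had a summed level of 6707.7 in DE 3, against 1161.2 and 1128.4 in DE 1 and DE 2. It was 2967.9 in AFE 2, against 415.46 and 505.74 in AFE 1 and AFE 3, and 88910 to 94290 in ES cells. Fibroblast markers, which the feeder cells share, had a summed level over 10 genes of 25308, 26488 and 50829 in ES cells, 4342.1, 4566.1 and 3798 in DE, and 7552.2, 13837 and 34357 in AFE. Postn was detected on 0 arrays. The sums of ES 3 and AFE 3 were the highest of their groups. The mean log2 level over the same 10 genes was instead lowest in AFE 3, at 6.62 against 7.19 and 7.21. There 5 markers were detected, against 7 and 8 in AFE 1 and AFE 2. In DE the mean was highest in DE 3, at 6.27 against 5.62 and 5.69, with 8 markers detected against 4 and 5. ES 3 was the highest ES array by both measures. Of 9 tested fibroblast markers 6 fell in DE against ES cells, with a median change of -2.84, and 4 fell in AFE against ES cells. Of all tested probes, 22.6% and 20.8% fell in these comparisons. In AFE against DE 1 of the 9 rose, near the 11% of all tested probes that rose there. Where a call below changed, or a change moved by over 1.5 times, without the third array of a group, that value is given.

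All 4 keratins rose in DE against ES cells and all 4 stood above ES cells in AFE, but they parted between DE and AFE. With quantile normalisation, Krt19 was the only one of the 4 that rose at both steps. Krt8, Krt18 and Krt7 rose at the first step and passed no test at the second. All 4 probes were detected on all 9 arrays, ES cells included, so the order described here is one of increase from a measured level and not of first appearance. Each level below is a log2 intensity after background correction and quantile normalisation. Levels of different probes are not set against each other.

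**Figure D1:**
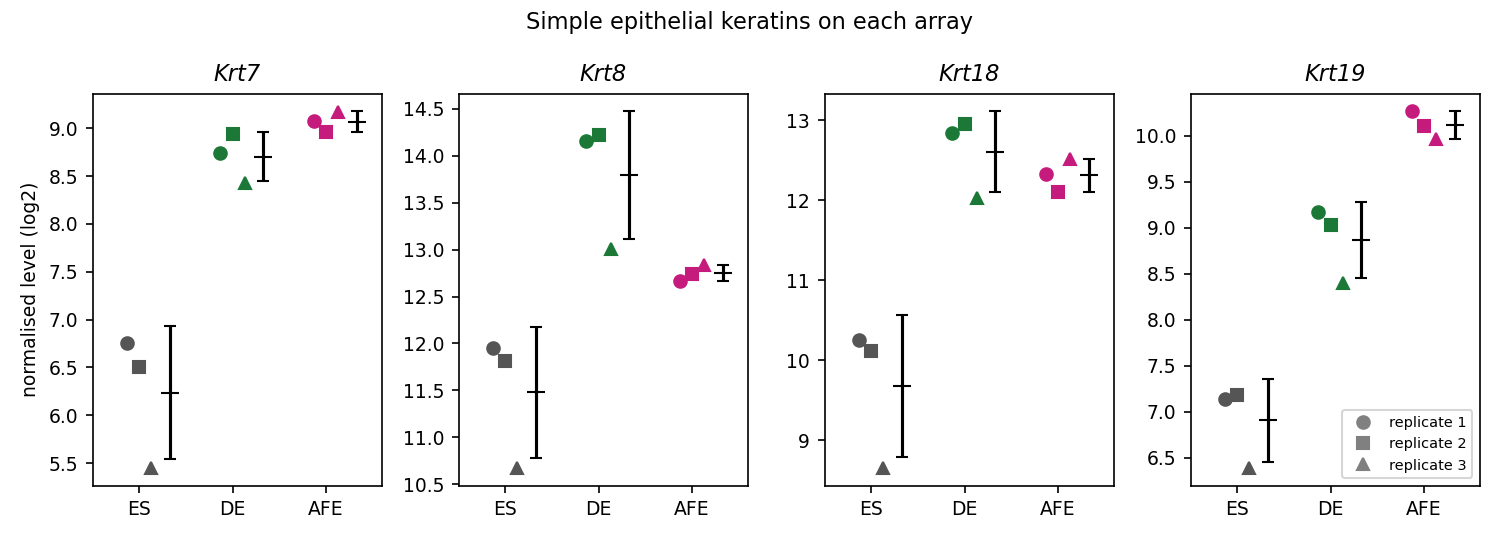
The log2 level of each keratin is plotted for every array by group, from ES cells to DE and AFE, with the group mean and SD (n = 3 arrays). All 4 keratins lie above ES cells in DE, and Krt19 alone has its 3 AFE arrays above DE by a difference that passed the test.

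Krt8, the type II partner of Krt18, had log2 levels of 14.15, 14.22 and 13.01 in DE against 11.95, 11.81 and 10.67 in ES cells. The groups did not overlap, and the third array was the low one in each. Before normalisation the intensities were 21968, 24678 and 6238 in DE and 4656, 4029 and 1565 in ES cells. Krt8 rose by 2.31 ± 0.39 (SE) on the log2 scale, which is 4.98-fold (95% interval of the log2 change 1.44 to 3.19, limma adjusted p = 0.00118). In AFE the log2 levels were 12.67, 12.74 and 12.84, all below those of DE and all above those of ES cells. The group means were 11.48 ± 0.70 in ES cells, 13.79 ± 0.68 in DE and 12.75 ± 0.084 in AFE (SD, n = 3 each). The difference of AFE from DE was -1.05 ± 0.39 with an interval of -1.92 to -0.17, and it did not pass at an adjusted p of 0.0852. It passed without DE 3 (-1.44, adjusted p = 0.0116) and without ES 3 (-1.06, adjusted p = 0.0452). Against ES cells, Krt8 in AFE rose by 1.27 ± 0.39, or 2.41-fold, at an adjusted p of 0.0253. That call was lost without ES 3, where the difference was 0.86 (adjusted p = 0.0871). It was also lost without AFE 1, AFE 2 or AFE 3, at adjusted p-values of 0.0542, 0.0595 and 0.0647, with no filter on dim probes (0.0514) and with median scaling (0.0723). Krt8 had the smallest change of the 4 keratins in AFE against ES cells.

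Krt18, the type I partner, had log2 levels of 12.84, 12.96 and 12.03 in DE against 10.25, 10.11 and 8.65 in ES cells, with no overlap. The measured intensities were 9072, 11046 and 3112 in DE and 1428, 1219 and 401 in ES cells. The rise of 2.93 ± 0.41 on the log2 scale was 7.64-fold (95% interval 2.02 to 3.85, adjusted p = 0.000405). It had the highest point estimate of the 4 keratins at this step, although the intervals of all 4 overlapped. The AFE levels of 12.32, 12.10 and 12.51 fell inside the range of the DE levels. The difference of AFE from DE was -0.29 ± 0.41, with an interval of -1.21 to 0.62 and an adjusted p of 0.656. This interval holds both a fall and a rise. Against ES cells, Krt18 rose by 2.64 ± 0.41 in AFE, or 6.23-fold (adjusted p = 0.000796).

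Krt7, the other type II keratin, had log2 levels of 8.74, 8.94 and 8.43 in DE against 6.76, 6.50 and 5.45 in ES cells. No array of one group reached the other, and ES 3 was the lowest array. In ES 3 the Krt7 probe had an intensity of 97 and a detection p of 0.00627, while the other ES arrays read 208 and 187. Krt7 rose by 2.47 ± 0.31, or 5.53-fold (95% interval 1.77 to 3.16, adjusted p = 0.000229). The AFE levels of 9.08, 8.96 and 9.17 lay just above all 3 DE levels. This difference of 0.37 ± 0.31 did not pass (95% interval -0.33 to 1.06, adjusted p = 0.446). Over ES cells Krt7 rose by 2.83 ± 0.31 in AFE, or 7.12-fold (adjusted p = 0.000101).

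Krt19, a type I keratin that lacks the tail domain of other keratins, had log2 levels of 9.17, 9.03 and 8.40 in DE against 7.14, 7.19 and 6.39 in ES cells. Again the third array of each group was the low one, and the groups did not overlap. Krt19 rose by 1.96 ± 0.27, or 3.89-fold (95% interval 1.35 to 2.57, adjusted p = 0.000398). In AFE it reached 10.27, 10.11 and 9.96, above each DE array. The measured intensities were 1032, 1013 and 817 in AFE and 865, 926 and 358 in DE, so the groups were separate after normalisation while AFE 3 lay below DE 1 and DE 2 before it. Krt19 rose in AFE against DE by 1.25 ± 0.27, or 2.37-fold (95% interval 0.64 to 1.86, adjusted p = 0.0115). It passed this test without any single array, with changes from 1.02 to 1.40, but not when arrays were scaled to equal medians in place of quantile normalisation (0.93, adjusted p = 0.0796). Over ES cells Krt19 rose by 3.20 ± 0.27 in AFE, or 9.22-fold (adjusted p = 2.26e-05).

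Counted over the 4 keratins, 4 of 4 rose in DE against ES cells, where 21.4% of all tested probes rose. In AFE against DE 1 of 4 rose and 0 fell, while 11% of the tested probes rose and 10.1% fell. At an unadjusted p under 0.05 in limma 1 fell there, Krt8. In AFE against ES cells 4 of 4 rose, with 21.2% of the tested probes. The median change of the 4 was 2.39 in DE against ES cells, 0.035 in AFE against DE and 2.74 in AFE against ES cells, beside medians of -0.0078, 0.043 and 0.031 over all tested probes. The comparisons share arrays, so they are not separate evidence. In the authors' processed table, in which a column named for ES cells ranked as no measured array, 0 of 4 keratins passed in any of these comparisons in limma, and 0 at an unadjusted p under 0.05. Without that column, 4 of 4 passed in DE against ES cells, 1 of 4 in AFE against DE and 3 of 4 in AFE against ES cells. Group by group, the 3 arrays of DE lay above those of ES cells without overlap for 4 of 4 keratins, and for 27.1% of the tested probes. AFE lay above DE without overlap for 2 of 4, Krt7 and Krt19, against 20.9% of the tested probes, and below DE for 1, Krt8, against 16.5%. AFE lay above ES cells for 4 of 4, against 28.9%. The sequence of a rise followed by a second rise, which Krt19 showed, occurred in 1.14% of the tested probes. The sequence of the other 3, a rise followed by no call, occurred in 14.2%.

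**Figure D2:**
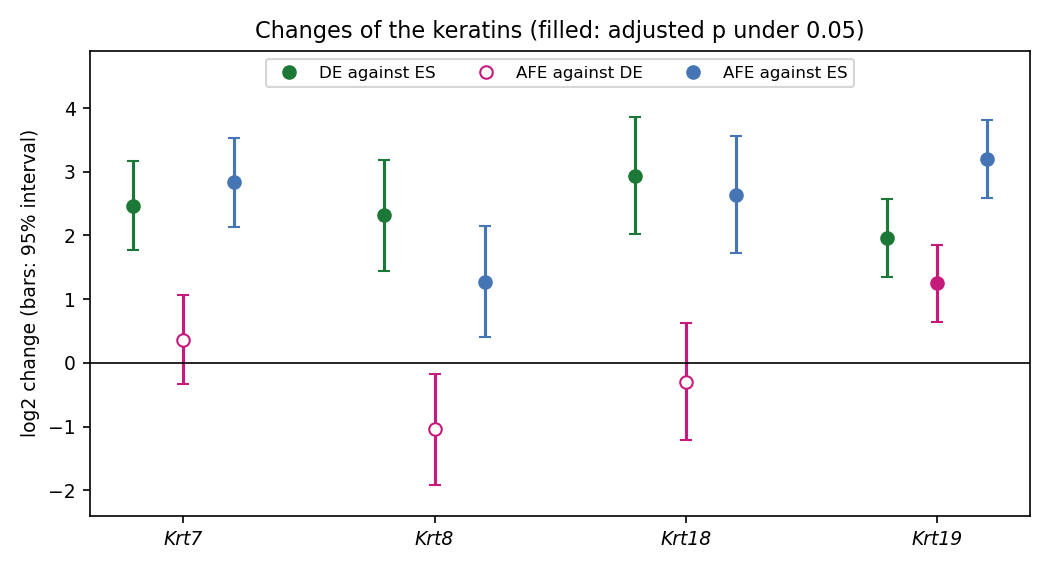
The log2 change of each keratin is drawn with its 95% interval for DE against ES cells, AFE against DE and AFE against ES cells, with filled points for changes that passed the adjusted test. The DE against ES intervals of all 4 keratins lie above 0 and overlap each other, whereas at the second step the Krt19 interval lies above 0 and the Krt8 interval below it.

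The order of increase was described by the contrast of the first step with the second, (DE minus ES) minus (AFE minus DE), in the same fit. The first step exceeded the second in 3 of 4 keratins, and 16% of all tested probes had such a difference. It was 3.36 ± 0.68 on the log2 scale for Krt8 (adjusted p = 0.00475) and 3.23 ± 0.71 for Krt18 (adjusted p = 0.00743). For Krt7 the first step exceeded the second by 2.10 ± 0.54 (adjusted p = 0.0148), a call lost without DE 1 (adjusted p = 0.0518) or DE 2 (adjusted p = 0.0668). Krt19 gave 0.71 ± 0.47 with an interval of -0.34 to 1.77 (adjusted p = 0.27), so its steps were not shown to differ in size. By these values the increase of Krt8, Krt18 and Krt7 lay in the passage from ES cells to DE. That of Krt19 was spread over both passages. No measurement lies between the 3 stages, so an order among the 4 within the first step could not be read.

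Comparing keratins on the same array removes what an array shares between probes. For each pair, the log2 ratio of their signals was compared between groups over arrays by a two-sided exact permutation test, in 18 tests in all. With 3 arrays against 3 the smallest possible p is 0.1, so none of these tests could pass. The ratio of Krt18 to Krt8 was higher by 0.62 log2 units in DE than in ES cells and by 0.75 in AFE than in DE, each without overlap between groups (exact p = 0.1, adjusted p = 0.1636). Across both steps the ratio of these filament partners was thus 1.37 log2 units higher in AFE than in ES cells. The ratio of Krt19 to Krt8 was higher by 2.29 in AFE than in DE without overlap, whereas DE and ES cells overlapped (-0.36, exact p = 0.3). The ratio of the type II keratins, Krt7 to Krt8, was higher by 1.41 in AFE than in DE without overlap, and it overlapped between DE and ES cells (0.15, exact p = 0.9). The ratio of the type I keratins, Krt19 to Krt18, differed by -0.97 in DE from ES cells and by 1.54 in AFE from DE, each without overlap. All ratios to Krt8 were thus highest in AFE.

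**Figure D3:**
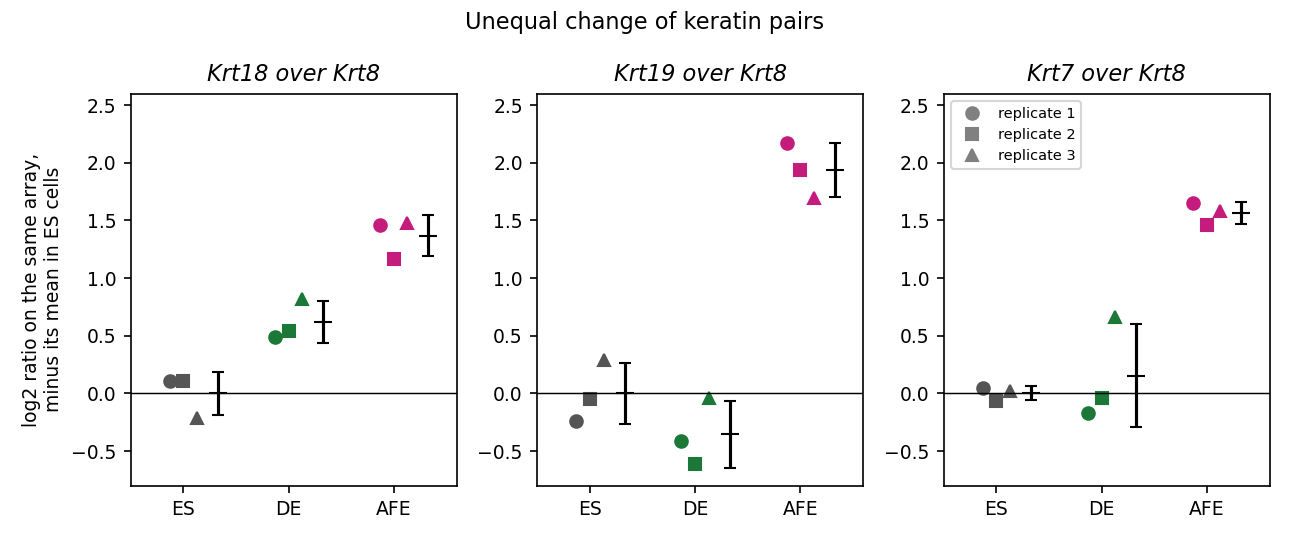
The within-array log2 ratio of Krt18, Krt19 and Krt7 to Krt8 is plotted by array and group after subtracting its mean over the ES arrays, with the mean and SD of each group (n = 3 arrays). All 3 ratios have their AFE arrays above the DE and ES arrays, and the Krt19 and Krt7 ratios overlap between DE and ES cells.

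The keratins were low on the third arrays of DE and ES cells. The gap of DE 3 from the mean of DE 1 and DE 2 was -0.41 for Krt7, -1.17 for Krt8, -0.87 for Krt18 and -0.70 for Krt19, in log2 units. The gap of ES 3 from the mean of ES 1 and ES 2 was -1.18 for Krt7, -1.21 for Krt8, -1.53 for Krt18 and -0.77 for Krt19. Over all tested probes, the median absolute gap of the third array was 0.38 in DE, 0.34 in AFE and 0.27 in ES cells. A gap over 1 was found for 14.2% of the probes in DE, 9.26% in AFE and 4.19% in ES cells. In AFE the gaps of the third array were between -0.23 and 0.30 for the 4 keratins. In DE 3 the mean log2 level of 10 endothelial markers differed by 4.57 from that of the other DE arrays, that of the definitive endoderm markers by -1.72 and that of 20 epithelial genes by -0.79. Fibroblast markers in ES 3 differed by 1.18 and the epithelial genes by 0.03 from the other ES arrays. The part of these other transcripts in the keratin levels was not tested. In RNA from a whole sample, fewer cells of a type and less RNA per cell cannot be told apart. The rise in DE against ES cells was called for 4 of 4 keratins without DE 3, with changes of 2.20 to 3.22, and without ES 3, with changes of 1.70 to 2.41.

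Few of the other keratins on the array passed the filter for testing. The array holds 50 probes for 43 other keratin genes, of which 23 were detected on 0 arrays, 10 on only 1 or 2, and 10 were tested. In DE against ES cells 2 of these 10 rose, 3 fell and 5 passed no test. Of all tested probes 21.4% rose and 22.6% fell there, so these counts lay near that background. In AFE against DE 2 rose, 2 fell and 6 passed no test, and in AFE against ES cells 1 rose, 3 fell and 6 did not. Of all tested probes 11% rose and 10.1% fell in AFE against DE, and 21.2% rose and 20.8% fell in AFE against ES cells. Without DE 3, 5 of 10 fell in DE against ES cells and 5 in AFE against ES cells. Krt42 and Krt14 passed the filter only through the ES arrays and Krt90 only through the DE arrays. The filter thus fixed the direction of their calls in these counts. Krt10, a keratin of the upper epidermis, was the only other keratin detected on all 9 arrays, and its changes were -0.20, 0.23 and 0.03 over the 3 comparisons with no call.

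The keratins that fell were present in ES cells. Krt42, a type I keratin, had log2 levels of 10.55, 10.74 and 10.11 in ES cells and was not detected on any DE or AFE array. It was at least 40.8-fold lower in DE and at least 35.3-fold lower in AFE than in ES cells. Krt42 passed the filter only through its ES arrays, so its calls add no support beyond this pattern of detection. These folds are bounds, set on each array at the higher of the dimmest detected signal and the signal of the probe itself. Krt17, a type I keratin of basal and wounded epithelia, had levels of 4.68, 4.66 and 5.44 in DE, where 1 of 3 arrays detected it, against 9.16, 9.01 and 10.13 in ES cells. It fell by 4.51 ± 0.36 in DE (adjusted p = 1.32e-05) and by 4.39 ± 0.36 in AFE (adjusted p = 1.63e-05) against ES cells. ES 3, low for the simple keratins, was the highest ES array for Krt17. Krt14, a basal keratin of stratified epithelia, was at least 2.08-fold lower in DE and at least 1.80-fold lower in AFE than in ES cells.

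A pair of other keratins were high in DE and not in AFE. Krt90 had log2 levels of 7.90, 7.76 and 5.97 in DE and was not detected in AFE or ES cells, which made DE at least 4.34-fold higher than ES cells and AFE at least 3.70-fold lower than DE. Krt23, a type I keratin, had levels of 7.13, 6.94 and 8.72 in DE against 5.62, 5.85 and 5.73 in ES cells and rose by 1.86 ± 0.39 (adjusted p = 0.0039). DE 3 was the lowest DE array for Krt90 and the highest for Krt23. Krt23 was at least 4.84-fold lower in AFE than in DE. In AFE against DE, Krt20, a keratin of the intestinal lining, rose by 1.07 ± 0.25 (adjusted p = 0.0164), and Krt15, a basal keratin, rose by 0.82 ± 0.21 (adjusted p = 0.0229). Of the keratins tested, these and Krt19 were the ones that rose at the second step. Krt20 and Krt15 were dim, and 1 of 3 DE arrays detected each. Before normalisation Krt15 read 145, 125 and 121 in AFE and an overlapping 129, 142 and 106 in DE. Krt20 read 135, 147 and 123 in AFE against 115, 118 and 121 in DE, and it had no call in AFE against ES cells (0.55, adjusted p = 0.107).

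**Figure D4:**
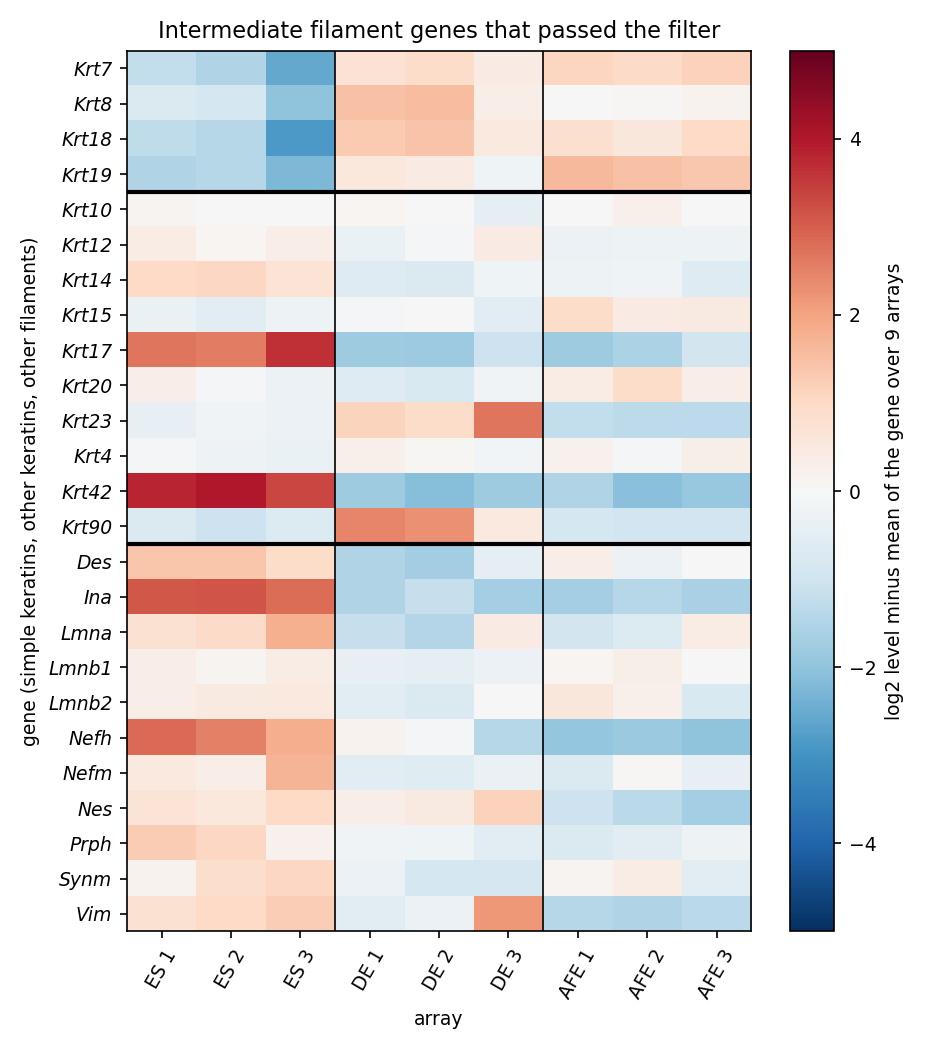
The log2 level of each gene minus its mean over the 9 arrays is drawn as colour for the 4 simple keratins, the 10 other tested keratins and 11 other intermediate filament genes, with arrays in the order ES, DE and AFE. The simple keratins are below their mean in all ES arrays, while Krt42, Krt17 and Ina are above theirs there.

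None of the tested intermediate filament genes other than keratins rose in DE against ES cells. These include genes of other cell types and the nuclear lamin genes Lmna, Lmnb1 and Lmnb2, of which Lmna and Lmnb1 fell. Of 11 tested, 0 rose, 8 fell and 3 passed no test in DE against ES cells, with a median change of -1.35, where 22.6% of all tested probes fell. At an unadjusted p under 0.05 in limma 0 rose and 9 fell. Ina, a filament protein of neurons, fell by 4.47 ± 0.20 (adjusted p = 4.83e-07), Nefh, the heavy neurofilament subunit, fell by 2.84 ± 0.40 and the desmin gene of muscle, Des, fell by 2.48 ± 0.32. Vim, the vimentin of mesenchymal cells, had levels of 10.33, 10.56 and 13.04 in DE against 11.62, 11.85 and 12.08 in ES cells, with no call (-0.54, adjusted p = 0.479). DE 3 was the highest array for Vim, and without it Vim fell by 1.41 in DE against ES cells (adjusted p = 0.000334). Without DE 3, 10 of the 11 genes fell in DE against ES cells. In AFE, at 9.43, 9.36 and 9.50, Vim fell by 1.88 ± 0.58 against DE (adjusted p = 0.045) and by 2.43 ± 0.58 against ES cells (adjusted p = 0.00797). The difference of Vim from DE was -1.02 without DE 3 (adjusted p = 0.00439), and it did not pass without ES 3 (-1.87, adjusted p = 0.0662) or AFE 3 (-1.92, adjusted p = 0.0861). In AFE against DE 2 of the 11 rose, Des and the lamin gene Lmnb1, while 3 fell and 6 passed no test. Of all tested probes 11% rose and 10.1% fell in this comparison. Without ES 3 only 1 rose there, and without AFE 3 only 1 fell. AFE had 0 that rose and 8 that fell against ES cells, where 20.8% of all tested probes fell. Prph and Nefm, counted among the genes that fell from ES cells in DE and in AFE, passed the filter only through the ES arrays. The filter thus fixed the direction of their calls in these counts.

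Some of the genes that tie keratin filaments to the cell border rose between DE and AFE. Of 10 tested genes in a desmosome and linker list, 0 rose and 2 fell in DE against ES cells, while 4 rose and 0 fell in AFE against DE. Of all tested probes, 22.6% fell at the first of these steps and 11% rose at the second. The 10 include Dspp, a dentin gene and not a linker, which had no call in any comparison, and desmoplakin is not among them. At an unadjusted p under 0.05 in limma 1 of the 10 rose at the first step and 0 fell at the second. Eppk1 (epiplakin, which binds keratins) had log2 levels of 9.35, 9.27 and 10.71 in AFE against 7.95, 7.98 and 6.01 in DE and rose by 2.46 ± 0.54 (adjusted p = 0.0113). Ppl (periplakin, a linker of the same family) fell by 0.91 ± 0.30 in DE against ES cells (adjusted p = 0.031) and rose by 2.08 ± 0.30 in AFE against DE (adjusted p = 0.00144). Pkp3, the desmosome plaque protein plakophilin 3, rose by 1.55 ± 0.23 in AFE against DE (adjusted p = 0.00169). Itgb4, the hemidesmosome integrin, fell by 2.02 ± 0.21 in DE against ES cells and rose by 2.56 ± 0.21 in AFE against DE, where its other tested probe had no call. Against ES cells, 4 rose and 0 fell in AFE, where 21.2% of all tested probes rose and 20.8% fell. Without DE 3, 1 of 10 rose in DE against ES cells and 1 fell in AFE against ES cells, and without ES 3 or without AFE 3, 2 rose in AFE against ES cells. Ppl did not pass in DE against ES cells without DE 3 (-0.73, adjusted p = 0.0735). Whether the steps of a linker and a keratin differ was not tested.

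Of 6 tested proteins known to bind keratins, 2 rose and 1 fell in DE against ES cells, and 0 passed in AFE against DE, also 0 at an unadjusted p under 0.05 in limma. Of all tested probes, 21.4% rose and 22.6% fell at the first of these steps, and 11% rose and 10.1% fell at the second. Sfn, the 14-3-3 sigma protein, fell by 3.92 ± 0.46 in DE against ES cells (adjusted p = 0.00014). Fbf1, which binds Krt8 and Krt18 filaments, rose by 1.11 ± 0.25 (adjusted p = 0.00597), and Fam83h, which brings casein kinase to keratins, rose by 0.92 ± 0.29 (adjusted p = 0.0284). Against ES cells, 2 rose and 1 fell in AFE, where 21.2% of all tested probes rose and 20.8% fell. Without DE 3, 4 of 6 rose in DE against ES cells, and without ES 3, 1 rose and 2 fell there and in AFE against ES cells. Fam83h did not pass without ES 3 (0.70, adjusted p = 0.098). Without AFE 3, 2 fell in DE against ES cells.

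Other epithelial genes were counted in the same way. Of 19 tested, 5 rose and 1 fell in DE against ES cells, 11 rose and 0 fell in AFE against DE, and 14 rose and 0 fell in AFE against ES cells, the count that fell in either AFE comparison being 0 at an unadjusted p under 0.05 in limma. Of all tested probes, 21.4%, 11% and 21.2% rose in these comparisons, and the first of the counts lay near that background. Without DE 3, 12 of 19 rose in DE against ES cells, so the count at the first step depends on that array. The tight junction gene Cldn6 rose with the keratins by 2.63 ± 0.28 in DE (adjusted p = 8.05e-05), whereas Cldn4, another claudin, fell by 2.18 ± 0.41 there and rose by 2.96 ± 0.41 in AFE against DE (adjusted p = 0.00123). The membrane protease Prss8 rose at both steps, as Krt19 did, by 2.20 ± 0.26 and 2.71 ± 0.26. Of 6 mesenchymal transition genes 1 rose and 1 fell in DE against ES cells, and 2 fell without DE 3. In AFE against DE 0 rose and 3 fell, among them Cdh2 (N-cadherin), which fell by 2.43 ± 0.34. Of all tested probes, 22.6% fell in DE against ES cells and 10.1% in AFE against DE.

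Factors known to act on keratin genes did not move as 1 group. Of 15 tested AP-1 and Ets factors, 4 rose and 5 fell in DE against ES cells, and 0 rose and 4 fell in AFE against DE. Of all tested probes, 21.4% rose and 22.6% fell at the first of these steps, and 11% rose and 10.1% fell at the second. Fosb fell by 4.50 ± 0.25 and Fos by 4.48 ± 0.52 in DE, while Ets1 rose by 2.50 ± 0.41 there (adjusted p = 0.000975) and fell by 2.73 ± 0.41 in AFE against DE. Against ES cells, 0 rose and 6 fell in AFE, also 0 risen at an unadjusted p under 0.05 in limma. Of all tested probes, 21.2% rose and 20.8% fell there. Without DE 3, 1 of these factors rose in each of the AFE comparisons. Without AFE 3, 1 rose and 7 fell in AFE against DE. Of 14 epithelial transcription factors, 4 rose and 6 fell in DE against ES cells and 4 rose and 4 fell in AFE against DE. Foxa1 rose by 5.91 ± 0.33 in DE. Grhl2, a factor of epithelial junction genes, fell by 2.21 ± 0.65 in DE against ES cells (adjusted p = 0.0196). That change was -1.24 without DE 3 (adjusted p = 0.000402) and did not pass without ES 3 (-2.19, adjusted p = 0.0564). Grhl2 then rose by 2.81 ± 0.65 in AFE against DE (adjusted p = 0.0139), and by 1.84 without DE 3 (adjusted p = 8.55e-05). In AFE against ES cells it had no call (0.59, adjusted p = 0.491), but rose without DE 3 (0.60, adjusted p = 0.0114). Of the 14 factors, 4 rose and 4 fell in AFE against ES cells, where 21.2% of all tested probes rose and 20.8% fell. Trp63, counted among the factors that rose in AFE against DE and against ES cells, passed the filter only through the AFE arrays. The filter thus fixed the direction of its calls in these counts.

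Markers of other cells that make simple keratins were also read. Of 6 tested trophoblast markers 2 rose and 1 fell in DE against ES cells, where 21.4% of all tested probes rose and 22.6% fell. The trophoblast markers Hand1 and Tpbpa were detected on 0 arrays. Their summed level over 8 markers was 4213.7 to 4817.6 in ES cells, 974.03 to 2122.5 in DE and 1214.3 to 1933.4 in AFE. Most of the ES sum was Tfap2c, with log2 levels of 12.00, 12.12 and 11.95 in ES cells, which fell by 4.69 ± 0.66 in DE. The mean log2 level of the 8 markers was 6.22, 6.17 and 5.89 in ES cells and 6.83, 6.74 and 6.00 in DE. In AFE this mean was 6.14, 6.46 and 6.06. Extraembryonic endoderm markers, which definitive endoderm shares in part, rose in 9 of 9 cases in DE against ES cells. They fell in 9 of 9 in AFE against DE, where 10.1% of all tested probes fell. Their summed level was 5974.9 to 7262.8 in ES cells, 31685 to 77535 in DE and 6966.9 to 11357 in AFE. The highest sum was that of DE 3, the DE array with the lowest keratin levels. The summed level of the 4 keratins was 2164.7 to 5425.7 in ES cells, 13114 to 28035 in DE and 12837 to 14723 in AFE. The part of these cell types in the keratin levels was not tested.

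The genes whose pattern was most like each keratin were found by the root mean square difference of log2 levels over the 9 arrays, each gene centred on its own mean, among 10250 genes. For Krt7 they were Arid3a (0.213), Spin2c (0.228), Cpn1 (0.321), Krt18 (0.324) and Plekhg3 (0.339). For Krt18 they were Nrarp (0.261), Krt7 (0.324), Sox5 (0.339), Angpt2 (0.378) and Stard10 (0.391). Krt7 and Krt18, 1 of each type, were thus near each other, at rank 4 and rank 2. For Krt8 the nearest were Tmeff1 (0.284), F11r (0.299), Ldlrad3 (0.301), Marchf8 (0.324) and Lgr5 (0.325). Its filament partner Krt18 came at rank 214 with a difference of 0.579, and Krt8 at rank 48 seen from Krt18. For Krt19 the nearest were Mbp (0.228), Sema5a (0.310), Trim68 (0.328), Fut4 (0.346) and Sall2 (0.354). Seen from Krt19, Krt7 came at rank 12, Krt18 at rank 196 and Krt8 at rank 1319. All these likenesses share the same 9 arrays and their group differences and carry no test.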

How the data were processed

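RNA of 9 samples was hybridised to single-colour Illumina mouse bead arrays. The authors deposited a non-normalised table of intensity values, with a detection p-value for each probe and array per the file headers, and a processed table. The processed table the authors deposited holds log2 values, by their range. How they were normalised is not stated in the labels or headers. Groups were taken from the labels. Intensities were background-corrected with limma's neqc, with negative controls inferred from the detection p-values (offset 16), quantile normalised and taken to log2. A probe was kept where 3 or more arrays had detection p-values below 0.05 (15090 of 25697). A linear model with 3 groups was fitted over all 9 arrays and moderated with eBayes (limma 3.58.1, R 4.3.3). P-values were adjusted by Benjamini-Hochberg over all kept probes, and calls were made at an adjusted p under 0.05. The script was tested on simulated data.

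Symbols came from the platform annotation: 23978 probes had 1 symbol and 1719 none, and 23962 matched a current gene by Entrez ID. Gene lists used the brightest kept probe of a gene. Named were every probe of the 4 keratins, the other keratins, up to 4 genes of each list with the largest change per comparison, and the 5 genes nearest to each keratin. Members and lists were chosen with earlier results of these data known. In the processed table, 7 of 9 columns ranked as the intensities of their own sample, the column named for ES 3 ranked as the intensities of ES 2, and the column named for ES 2 ranked as those of no array, so that table served only as an alternative. Deviations of equally numbered arrays correlated at -0.147 to 0.0837, so the numbers did not pair the samples. Alternatives were the background, scaling, filter, probe, slide, replicate block and single arrays left out.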

Additional observations from a re-analysis of the deposited data

How the results depend on the processing

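Each change of a keratin was refitted under 22 alternatives, which gave 88 values for each comparison. Direction and call were kept in 84 for DE against ES cells, 83 for AFE against DE and 76 for AFE against ES cells. A replicate block changed no call of the 4 keratins, with counts of 4, 1 and 4 and, for the first step against the second, 3. The processed table called 0 keratins in all 4 contrasts in limma, and 0 at an unadjusted p under 0.05. Its changes in DE against ES cells were 0.62 for Krt7, 0.96 for Krt8, 1.31 for Krt18 and 0.64 for Krt19, with 1.11 for Krt19 in AFE against DE. In AFE against ES cells they were 0.82 for Krt7, -0.0059 for Krt8, 1.04 for Krt18 and 1.75 for Krt19. For the first step against the second they were 0.42 for Krt7, 1.93 for Krt8, 1.58 for Krt18 and -0.47 for Krt19. Of its ratios, Krt7 to Krt8 gave -0.34 and Krt19 to Krt7 0.0185 in DE against ES cells, and Krt18 to Krt7 0.22 in AFE against ES cells. Without its unmatched ES column, chosen as an alternative after seeing the data, that table called 4, 1, 3 and 3 keratins in the 4 contrasts. There Krt8 gave 0.74 in AFE against ES cells (adjusted p = 0.145), and Krt19 to Krt8 0.0856 in DE against ES cells. Median scaling called 0 keratins in AFE against DE (2 at an unadjusted p under 0.05 in limma), with 0.93 for Krt19, and gave 1.11 for Krt8 in AFE against ES cells (adjusted p = 0.0723). With no filter Krt8 gave 1.27 there (adjusted p = 0.0514). The slide as a block called 2 keratins in AFE against DE, with -1.05 for Krt8 (adjusted p = 0.0466), and gave 0.87 for Krt8 in AFE against ES cells (adjusted p = 0.0817). With no background correction the ratio of Krt7 to Krt8 was -0.69 in DE against ES cells, and in AFE against ES cells Krt18 to Krt7 was 0.61 and Krt19 to Krt18 was -0.002. With an offset of 50 and no detection p, Krt7 to Krt8 was -0.51 and Krt18 to Krt7 0.44 in the same comparisons. Leaving out 1 array at a time gave counts of 1 to 2 in AFE against DE. It gave changes of -1.44 to -0.83 for Krt8 in AFE against DE, 0.86 to 1.50 for Krt8 in AFE against ES cells and 1.72 to 2.38 for Krt7 in the first step against the second. It gave -0.0882 (without DE 3) to 0.28 for the ratio of Krt7 to Krt8 in DE against ES cells. The causes were not tested. Signal over background was weakest for Krt7 in ES 3, at a detection p of 0.00627.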
